A study of Rattus norvegicus with 18 samples.

Results

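Livers of rat pups from the high-dose group (G3) were compared directly with livers from the low-dose group (G2), without the vehicle group (G1) in the test. The comparison asks which transcripts separate 2 doses of BDE-47, a brominated flame retardant, and which do not. The doses were 0.2 mg/kg body weight in G3 and 0.002 mg/kg in G2, a 100-fold difference. The 12 pups were chosen by the dose in their titles, 6 of G3 and 6 of G2, out of 18 in the series. The other 6 were G1 pups and serve below as a background level.

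All pups were offspring of Wistar dams, 3 dams per group. Every dam, also in G1, received the same vehicle of ethanol, Cremophor EL and water by caudal injection, with BDE-47 added in G3 and G2, in 6 injections at intervals of 5 days between GD 15 and PND 20. The pups were thus exposed through the dam and were not dosed themselves. The pups were sacrificed on PND 27, and each group held 3 males (replicates 1 to 3) and 3 females (replicates 4 to 6), 1 of each sex per litter. Since 3 litters gave 6 pups per group and the labels do not say which pup came from which litter, the tests treat the 6 pups as independent. If pups of 1 litter are alike, the p-values below are too small.

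Total RNA of each liver was hybridized to 1 Illumina RatRef-12 array with 22523 probes. Several such arrays share a BeadChip, and which arrays shared one is not stated in the sources used here. The chip could therefore not be tested as a batch, and its part in the differences between the doses is not known. Expression is given on the log2 scale as deposited, on which a difference of 1 is 2-fold. Values ran from 7.61 to 15.73 with a median probe at 7.84, so that most probes lie near the lower end of the scale. The brightest probes lie near its upper end, and whether their signal still follows the transcript there was not tested. The 12 arrays correlated with each other at 0.987 to 0.995 across probes. Precision is limited by the number of arrays.

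The samples read as liver in both groups. The 12 measured hepatocyte markers averaged 13.22 to 13.36 per pup in G3 and 13.30 to 13.47 in G2, and albumin (Alb) stood at 15.45 to 15.59 in G3 and 15.49 to 15.65 in G2. G3 replicate 2, a male, stood apart from the other pups by carrying skeletal muscle transcripts. The skeletal actin Acta1 was at 13.70 and the muscle creatine kinase Ckm at 12.77 in this pup, and the 24 measured muscle markers averaged 9.81. The same 24 averaged 7.83 to 7.99 in the other 5 G3 pups and 7.83 to 7.84 in G2. Acta1 and Ckm were at 8.91 and 8.38 in G3 replicate 4, a female, and at 7.70 to 7.79 and 7.69 to 7.75 in G2. All 24 muscle markers were higher in G3 (median difference 0.294), and without G3 replicate 2 the counts were 17 higher and 7 lower (median 0.020). Values without this pup are given beside several of the results below.

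The transcripts described below belong to a few well-known parts of liver metabolism. Hepatocytes build cholesterol from acetyl-CoA in a long chain of reactions, the last of which reduce and rearrange lanosterol in the endoplasmic reticulum, and they convert cholesterol to bile acids through cytochromes P450. Microsomal P450 enzymes, among them the early sterol demethylase, take their electrons from NADPH through 1 shared flavoprotein, the P450 oxidoreductase. Many rat liver P450 and transferase genes are also set by sex and age, and around weaning their levels are still changing.

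Of the 22523 probes, 4 (0.0178%) passed an adjusted p of 0.05 in G3 against G2, and 0 of these differed by 2-fold (limma, two-sided, Benjamini-Hochberg over all probes). Slc6a6 rose (1 probe, 0.00444%), while Sc5d, Por and ILMN_1650310, which carries no gene symbol in the tables used here, fell (3 probes, 0.0133%). At an unadjusted p of 0.05, which does not control false calls, 2132 probes (9.47%) passed, 941 (4.18%) higher and 1191 (5.29%) lower in G3. A difference of at least 2-fold accompanied such a p at 5 probes (0.0222%), all lower in G3, which were Dusp1, Cyp2c7, Cyp7a1 and the probes ILMN_1362029 and ILMN_1351122, which carry no symbol. The 6 G3 pups lay entirely above or entirely below the 6 G2 pups at 137 probes (0.608%), 50 higher and 87 lower. The plot of all probes shows how few of them left the band around 0.

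**Figure D1:**
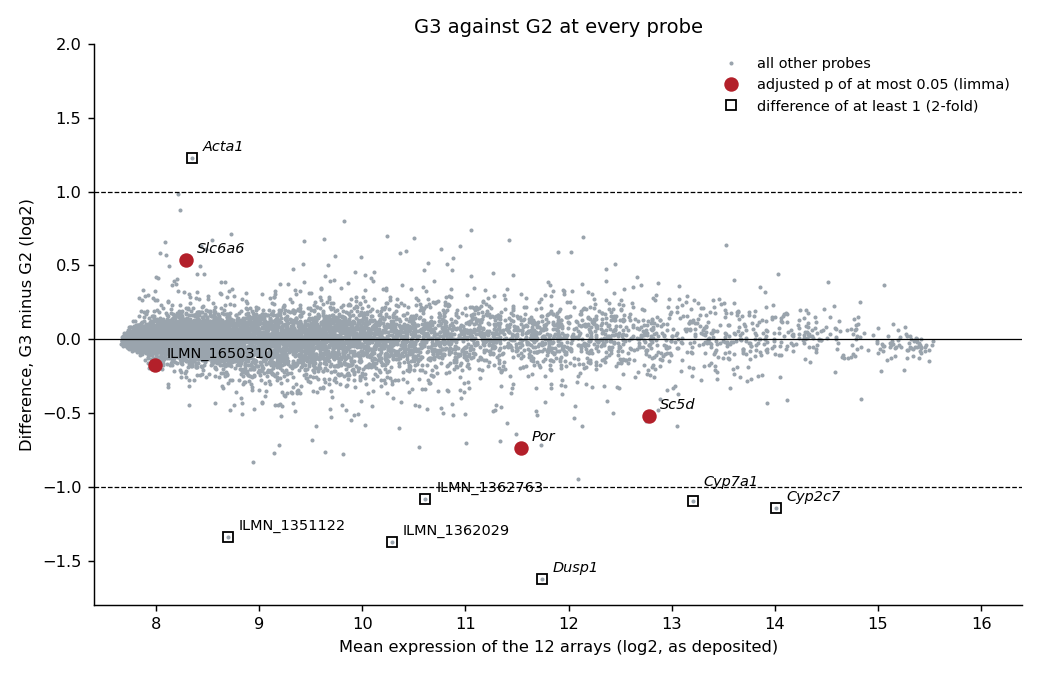
Difference between G3 and G2 (G3 minus G2, log2) against the mean expression of the 12 arrays for each of 22523 probes. Red points are the 4 probes past an adjusted p of 0.05, and squares are the 7 probes that differed by at least 2-fold, of which 6 were lower in G3 and Acta1 was higher.

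Sc5d (sterol C5-desaturase, GRCr8 chr8:51526669-51538277) is one of the last enzymes of cholesterol synthesis. Por (P450 oxidoreductase, chr12:26587674-26655612) is the electron donor of the microsomal P450 enzymes. Slc6a6 (chr4:125752340-125826033) is the sodium-dependent taurine transporter of the cell membrane. The position of each probe within its transcript was not analysed here.

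The promoters of these 3 genes are shown because they are the named transcripts that separated the doses. Each runs from 250 bases before to 50 bases after the start of a transcript in the RefSeq table (GRCr8), 5′ to 3′ on the strand of the gene. For Por and Slc6a6 this start lies inside the annotated gene. Capitals mark CCAAT and GGGCGG on either strand, so that ATTGG and CCGCCC are also in capitals.
Sc5d, chr8:51538228-51538527, minus strand: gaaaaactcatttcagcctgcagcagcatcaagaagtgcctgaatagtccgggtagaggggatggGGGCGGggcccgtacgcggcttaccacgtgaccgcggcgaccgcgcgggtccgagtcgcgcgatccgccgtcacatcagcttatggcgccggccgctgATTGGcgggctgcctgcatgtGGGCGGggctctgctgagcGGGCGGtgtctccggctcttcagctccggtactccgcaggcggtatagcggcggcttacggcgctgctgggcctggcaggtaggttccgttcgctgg
Por, chr12:26635760-26636059, minus strand: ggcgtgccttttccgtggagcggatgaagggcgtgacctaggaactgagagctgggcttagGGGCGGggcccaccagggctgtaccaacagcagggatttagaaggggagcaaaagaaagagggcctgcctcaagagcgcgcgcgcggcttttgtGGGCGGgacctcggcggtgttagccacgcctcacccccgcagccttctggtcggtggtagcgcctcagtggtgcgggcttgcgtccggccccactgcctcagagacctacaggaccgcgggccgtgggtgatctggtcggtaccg
Slc6a6, chr4:125752252-125752551, plus strand: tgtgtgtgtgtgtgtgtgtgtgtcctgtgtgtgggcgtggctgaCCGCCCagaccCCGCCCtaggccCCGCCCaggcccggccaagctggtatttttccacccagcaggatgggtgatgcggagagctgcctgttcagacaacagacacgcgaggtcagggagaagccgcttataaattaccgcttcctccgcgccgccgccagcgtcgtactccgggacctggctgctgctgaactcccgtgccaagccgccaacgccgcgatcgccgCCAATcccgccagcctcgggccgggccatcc

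Sc5d held 1 CCAAT and 3 GGGCGG matches, Por held 0 and 2, and Slc6a6 held 1 and 3 (the capitals of the different motifs do not overlap). Over all 33469 promoters listed there, 37.5% hold CCAAT and 33.1% hold GGGCGG on either strand. Of the 15 cholesterol synthesis genes measured here 12 have a promoter in that table, and CCAAT occurs in 9 of them and GGGCGG in 10. CACGTG, on both strands also, was found in 1 of the 12, Sc5d (6.42% of all promoters), and the sterol element letters TCACNCCAC in 0 of the 12 (1.12% of all promoters); these are not in capitals. A match describes the letters in this window and says nothing about whether a factor binds.

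Sc5d had the smallest p of all probes. Its log2 expression was 12.36, 12.54 and 12.62 (lowest, median and highest pup) in G3, against 12.97, 13.04 and 13.09 in G2. Each G3 pup lay below each G2 pup, and the gap between the groups was wider than the range of either. The means were 12.52 ± 0.09 in G3 and 13.04 ± 0.05 in G2 (SD, n = 6 each). Sc5d fell by 0.52 (standard error 0.04, adjusted p = 0.000592 from limma), or 1.43-fold. It was lower by 0.50 in males and 0.54 in females. The exact two-sided permutation test gave p = 0.00216, the smallest that 6 pups against 6 allow. Any probe whose groups do not overlap gives this same value, and it is not adjusted for the number of probes. The call held without any one of the 12 pups. It was lost in 2 of 20 other settings, with an adjusted p of 0.0587 when all 3 groups were fitted together and of 0.0765 with the replicate number as a block.

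Por was at 10.94, 11.16 and 11.40 (lowest, median and highest pup) in G3 and at 11.62, 11.92 and 12.14 in G2. The groups did not overlap, and the highest G3 pup (replicate 2) and the lowest G2 pup (replicate 6) lay closest to each other. Por fell by 0.74 (standard error 0.09, adjusted p = 0.0275 from limma), or 1.67-fold, with means of 11.17 ± 0.16 in G3 and 11.90 ± 0.18 in G2 (SD, n = 6 each). The difference was -0.77 in males and -0.71 in females. Over 20 other settings the difference lay between -0.79 and -0.69. The adjusted p was above 0.05 in 12 of them and reached 0.249. Among the settings that leave out 1 pup, the call held only without G3 replicate 2 or without G2 replicate 6.

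Of 7 measured electron partners of the P450 system, Por included, 2 were higher and 5 lower in G3, and Por alone was past an unadjusted p of 0.05. Cyb5a, the cytochrome b5 that passes electrons to desaturases and some P450 enzymes, was at 14.92, 15.06 and 15.14 in G3 and at 14.87, 14.95 and 15.14 in G2. Its difference was 0.07 with a 95% interval of -0.04 to 0.19, so that a change of the size seen in Por lies outside the interval.

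Slc6a6 was at 8.40, 8.57 and 8.68 (lowest, median and highest pup) in G3 and at 7.86, 8.05 and 8.13 in G2. Every G3 pup lay above every G2 pup. Slc6a6 rose by 0.54 (standard error 0.07, adjusted p = 0.0275 from limma), or 1.45-fold on the deposited scale, with means of 8.56 ± 0.14 in G3 and 8.02 ± 0.11 in G2 (SD, n = 6 each). These levels stand near the lower end of the scale. The difference was 0.60 in males and 0.47 in females. Over 20 other settings the difference lay between 0.50 and 0.57 and the adjusted p reached 0.112. Among the settings that leave out 1 pup, the call held only without G2 replicate 6. The 2 measured enzymes that make taurine from cysteine did not pass the test. Cdo1, the cysteine dioxygenase, was at 14.21, 14.48 and 14.72 in G3 and at 14.53, 14.62 and 14.93 in G2 (difference -0.22, adjusted p = 0.528 from limma). Csad, the decarboxylase that follows it, differed by -0.34 (adjusted p = 0.529).

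ILMN_1650310 lay still closer to the lower end of the scale, at 7.88 to 7.98 in G3 and 8.03 to 8.13 in G2. Its difference was -0.18 (standard error 0.02, adjusted p = 0.0275 from limma), the smallest of the 4. Among the settings that leave out 1 pup, the call held only without G3 replicate 3 or without G2 replicate 6.

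**Figure D2:**
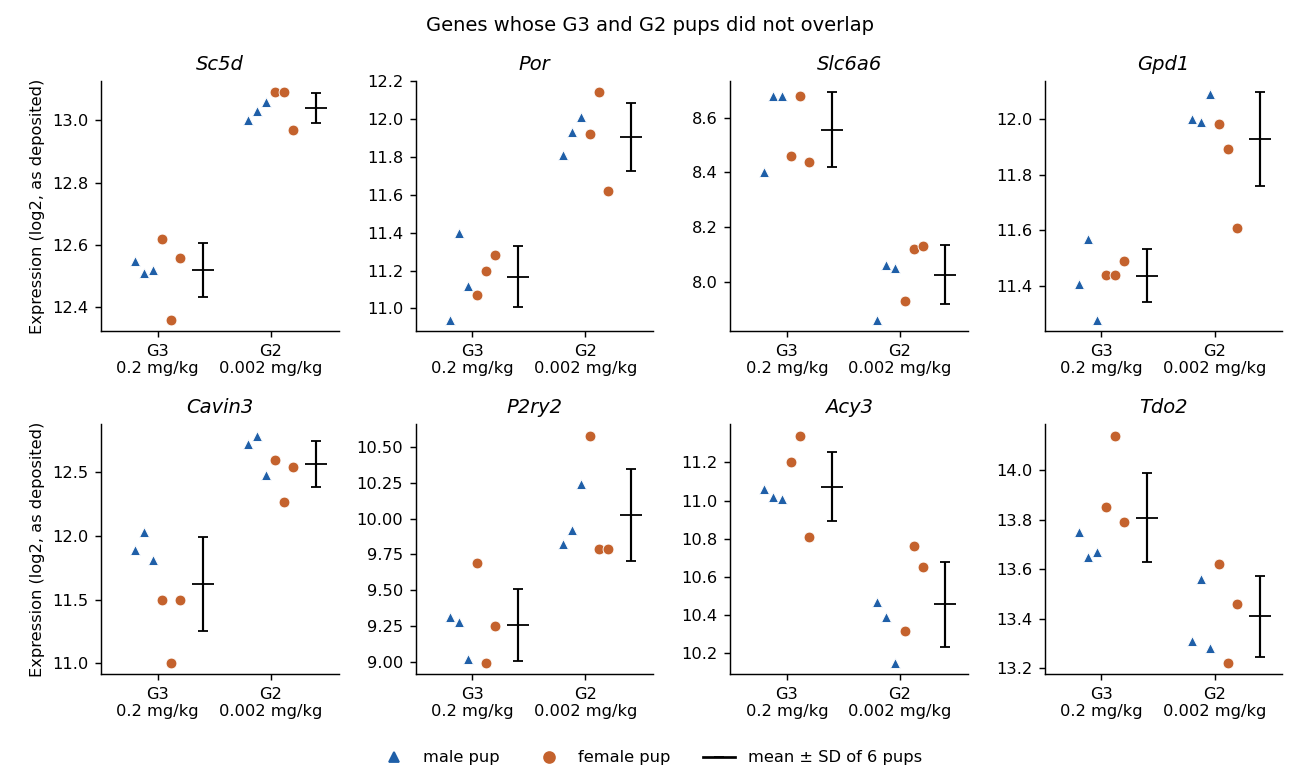
Expression of 8 genes in each pup (log2, as deposited), G3 on the left and G2 on the right of each panel, with triangles for males, circles for females and bars for the mean and SD of 6 pups. In none of the 8 panels do the G3 and G2 pups overlap, and the adjusted p was 0.000592 for Sc5d, 0.0275 for Por and Slc6a6, and above 0.05 for the other 5.

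The enzymes of cholesterol synthesis were read as a list, which was drawn up with earlier results of these data known. Of 15 measured members 14 were lower and 1 was higher in G3, with a median difference of -0.179. Over all probes 48.8% were higher in G3 and the median difference was -0.001. At an unadjusted p of 0.05, 5 members were lower and 0 higher (33.3% and 0.0%), against 5.29% and 4.18% of all probes, and Sc5d alone passed the adjusted p. Without G3 replicate 2 the list stood at 13 lower and 2 higher, 4 of them lower at an unadjusted p of 0.05, with a median of -0.157. Pericentral hepatocyte markers were lower in G3 at 12 of 12 and erythroid markers higher at 13 of 14, as given further on, and their part in this difference was not tested. In bulk liver RNA, fewer cells of a type and less RNA per cell cannot be told apart.

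The 4 members past an unadjusted p of 0.05 beside Sc5d were the sterol C14-reductase Tm7sf2, the 3-ketosteroid reductase Hsd17b7, the last reductase of the chain Dhcr7, and the mevalonate pyrophosphate decarboxylase Mvd. Tm7sf2 was at 11.71, 11.81 and 12.12 in G3 and at 11.84, 12.28 and 12.63 in G2, with 4 G3 pups below every G2 pup (difference -0.46, standard error 0.12, adjusted p = 0.301 from limma). A dimmer probe of Tm7sf2 differed by -0.01 (standard error 0.32). Hsd17b7 was at 9.04, 9.15 and 9.53 in G3 and at 9.39, 9.54 and 9.80 in G2 (difference -0.37, adjusted p = 0.303). Dhcr7 was at 12.70, 12.83 and 13.24 in G3 and at 13.07, 13.21 and 13.60 in G2 (difference -0.37, adjusted p = 0.346). For both, 5 of 6 G3 pups lay below every G2 pup. Mvd, an early enzyme, was at 10.17, 10.54 and 10.74 in G3 and at 10.41, 10.82 and 11.14 in G2 (difference -0.30, adjusted p = 0.505 from limma).

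The remaining members differed less. The squalene epoxidase Sqle (-0.20), the methylsterol oxidase Msmo1 (-0.19), the sterol dehydrogenase Nsdhl (-0.18), the thiolase Acat2 (-0.14) and the sterol isomerase Ebp (-0.13), which had the highest level of the list, all had intervals that include 0. So did the squalene synthase Fdft1 (-0.12), the lanosterol demethylase Cyp51 (-0.12), the isomerase Idi1 (-0.10) and the farnesyl diphosphate synthase Fdps (-0.09). Idi1 differed by 0.01 without G3 replicate 4, and Fdps by 0.02 without G3 replicate 2. Pmvk, the phosphomevalonate kinase, was the 1 member higher in G3 (0.08, 95% interval -0.08 to 0.25). None of the 15 intervals reached 2-fold. Both sexes were lower in G3 at 12 of the 15 members. The members other than Sc5d, Tm7sf2 and Ebp are outside the rule for named genes and were chosen after their values were seen, as were Csad above and Srebf1 below.

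**Figure D3:**
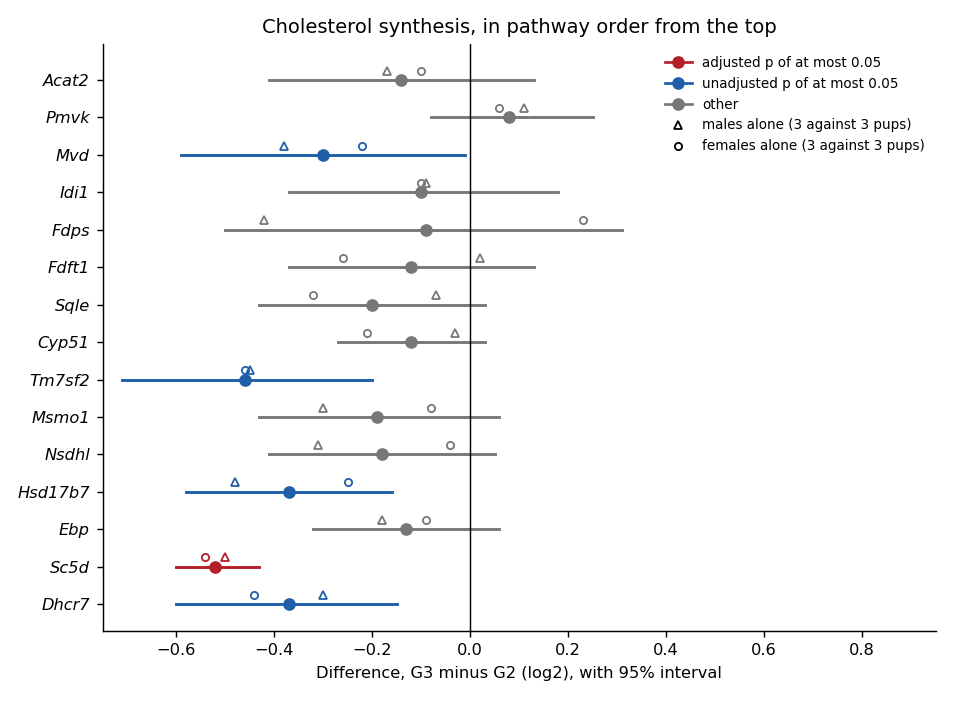
Difference between G3 and G2 (G3 minus G2, log2) for the 15 measured genes of cholesterol synthesis in the order of the pathway, with 95% intervals over 6 pups against 6. Small open triangles and circles are males and females alone. Of the 15 points 14 lie left of 0, Sc5d has the shortest interval, from -0.60 to -0.43, and Fdps the sexes furthest apart, at -0.42 in males and 0.23 in females.

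Genes that handle cholesterol after its synthesis were mixed, 5 higher and 11 lower of 16 (median -0.044). At the same unadjusted p as for cholesterol synthesis, 3 were higher and 2 lower. These shares were 18.8% and 12.5%, against 4.18% and 5.29% of all probes. Differences in the list ran from -0.53 to 0.44, and the members named next were all lower in G3. Soat2, the enzyme that esterifies cholesterol, was at 9.35, 9.55 and 9.99 in G3 and at 9.70, 10.03 and 10.34 in G2 (difference -0.44, adjusted p = 0.382 from limma). Srebf1, a transcription factor of lipid synthesis, was at 10.98, 11.82 and 12.45 in G3 and at 12.08, 12.27 and 12.70 in G2 (difference -0.53, adjusted p = 0.492), by -0.93 in males and -0.14 in females. Lcat, the plasma enzyme that esterifies cholesterol and the brightest of the list, differed by -0.07 (95% interval -0.21 to 0.07).

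Fatty acid synthesis had 15 of 21 measured members lower in G3 (median -0.053), 5 of them lower and 0 higher at an unadjusted p of 0.05 (23.8% and 0.0%, against 5.29% and 4.18% of all probes). Acly, which supplies acetyl-CoA from citrate, was at 11.30, 11.88 and 12.33 in G3 and at 12.07, 12.45 and 12.93 in G2 (difference -0.59, standard error 0.19, adjusted p = 0.400 from limma). Acsl5, a long-chain acyl-CoA synthetase, differed by -0.29 (adjusted p = 0.406), and Scd, the abundant stearoyl-CoA desaturase, by -0.13 (95% interval -0.41 to 0.15). Gpd1, which makes glycerol 3-phosphate for triglycerides and is in none of these lists, was at 11.28, 11.44 and 11.57 in G3 and at 11.61, 11.98 and 12.09 in G2. The groups did not overlap, the difference was -0.49 (standard error 0.07), and the adjusted p of 0.0699 from limma narrowly missed the threshold.

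Among the bile acid genes, Cyp7a1 had unlike differences in males and females, although the contrast between the sexes did not pass the test. Cyp7a1, the hydroxylase that sets the pace of bile acid synthesis, was at 11.64, 12.84 and 13.47 (lowest, median and highest pup) in G3 and at 13.26, 13.93 and 14.07 in G2. The difference was -1.09 (standard error 0.33, 95% interval -1.82 to -0.36, adjusted p = 0.376 from limma). In males the values were 11.83, 12.51 and 11.64 in G3 and 14.01, 14.07 and 14.04 in G2, a difference of -2.05. In females they were 13.33, 13.47 and 13.17 in G3 and 13.85, 13.28 and 13.26 in G2, a difference of -0.14. The male pups of the doses did not overlap and the female pups did. The difference between the sexes was 1.91 (female minus male), with an adjusted p of 0.819 over all probes (limma interaction term). The sexes held 3 pups per dose.

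Cyp8b1, the sterol 12-alpha-hydroxylase of the same pathway, was at 11.86, 12.19 and 12.43 in G3 and at 12.14, 12.71 and 13.16 in G2 (difference -0.50, adjusted p = 0.435 from limma). The bile acid transporter Slc10a1, the brightest of the list, differed by 0.04 (95% interval -0.05 to 0.12). Of the 20 bile acid genes 9 were higher and 11 lower in G3 (median -0.049), with 3 lower and 0 higher at an unadjusted p of 0.05 (15.0% and 0.0%, against 5.29% and 4.18% of all probes). Without G3 replicate 2 they stood at 8 higher and 12 lower (median -0.079), with 3 lower and 1 higher at that p.

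Insig2, which holds the sterol sensor SCAP in the endoplasmic reticulum, also had unlike differences in the sexes, and again the contrast did not pass the test. Its values were 13.29, 13.45 and 13.56 in G3 males and 12.81, 12.61 and 12.63 in G2 males, a difference of 0.75 with no overlap. In females they were 12.66, 12.85 and 12.53 in G3 and 12.64, 12.61 and 12.79 in G2, a difference of 0.00. The difference between the sexes was -0.75 (female minus male, adjusted p = 0.997 from limma). Ak4, a mitochondrial adenylate kinase, was higher in G3 by 0.77 in males and by 0.17 in females (pooled 0.47, standard error 0.11, adjusted p = 0.279 from limma). Over all probes 0 passed an adjusted p of 0.05 for a dose difference that differs by sex, and 776 (3.45%) passed an unadjusted p of 0.05.

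**Figure D4:**
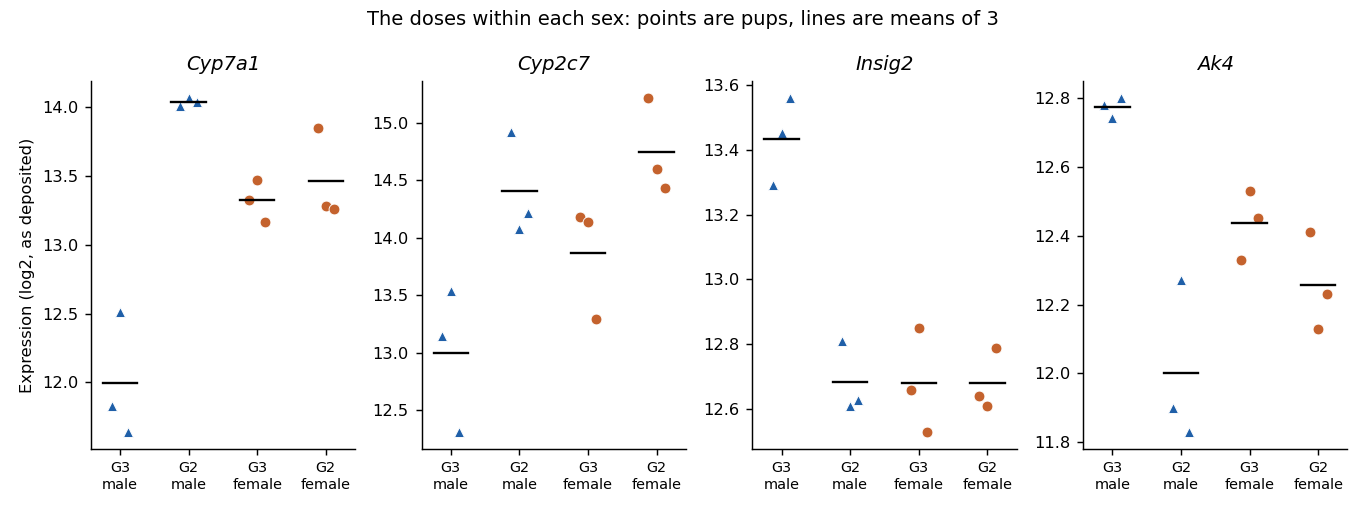
Expression of 4 genes in each pup (log2, as deposited) with the sexes apart, G3 left of G2 within each sex, and lines at the mean of 3 pups. The Cyp7a1 and Insig2 values of the doses do not overlap in males, with differences of -2.05 and 0.75, and do overlap in females, with -0.14 and 0.00, while Cyp2c7 was lower in G3 in both sexes, by 1.41 and 0.88.

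Among the cytochromes P450 of families 1 to 4 the doses did not differ in one direction, with 22 of 45 measured members higher and 23 lower in G3 (median -0.002). At an unadjusted p of 0.05, 2 were higher and 3 lower (4.44% and 6.67%, against 4.18% and 5.29% of all probes), and without G3 replicate 2 1 was higher and 4 were lower (median -0.009). Cyp2c7, a retinoid-metabolizing P450 that is higher in female rats, had the largest difference of the list. It was at 12.31, 13.42 and 14.18 in G3 and at 14.08, 14.51 and 15.22 in G2, with 4 G3 pups below every G2 pup. The difference was -1.14 (standard error 0.31, 95% interval -1.83 to -0.46, adjusted p = 0.334 from limma). The vehicle pups averaged 13.61 ± 0.36 (SD, n = 6), close to G3. A dimmer probe of Cyp2c7, at the lower end of the scale, differed by -0.02. Cyp2c12, the brightest of the list, differed by -0.15 (95% interval -0.30 to 0.00). Cyp1a2, the main liver target of the aryl hydrocarbon receptor, was at 13.22, 13.78 and 13.96 in G3 and at 13.82, 13.86 and 14.18 in G2 (difference -0.25, 95% interval -0.52 to 0.02). Of 9 targets of that receptor 5 were higher and 4 lower in G3, and 0 passed an unadjusted p of 0.05. Cyp3a23-3a1, the inducible Cyp3a form, differed by -0.18 (95% interval -0.39 to 0.03) at its brighter probe and by 0.22 at another.

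Phase II transferases leaned toward G3, with 23 of 36 measured members higher (median 0.063) and 7 higher and 0 lower at an unadjusted p of 0.05, 19.4% against 4.18% of all probes. Sult1c3, a sulfotransferase that is higher in male rats, was at 10.21, 10.84 and 11.18 in G3 and at 9.66, 10.20 and 10.40 in G2 (difference 0.60, standard error 0.19, adjusted p = 0.391 from limma). Sult1b1, a sulfotransferase of thyroid hormones and phenols, differed by 0.63 (adjusted p = 0.491). The glutathione transferases Gsto1 (0.26, adjusted p = 0.347) and Gstt2 (0.16, adjusted p = 0.352) were also higher, while Mgst1, the brightest of the list, differed by 0.00 (95% interval -0.12 to 0.11) and Gstm1 by -0.11 (95% interval -0.26 to 0.05).

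Amino acid catabolism and the urea cycle had 26 of 42 members higher in G3 (median 0.076), with 7 higher and 1 lower at an unadjusted p of 0.05 (16.7% and 2.38%, against 4.18% and 5.29% of all probes). Without G3 replicate 2, 7 were higher and 2 lower at that p. Tdo2, the liver enzyme that opens tryptophan toward kynurenine, was at 13.65, 13.77 and 14.14 in G3 and at 13.22, 13.38 and 13.62 in G2. The groups did not overlap (difference 0.40, standard error 0.09, adjusted p = 0.279 from limma). Acy3, which is in none of the lists, is an aminoacylase that removes acetyl groups from mercapturic acids. It was at 10.81, 11.04 and 11.34 in G3 and at 10.15, 10.43 and 10.76 in G2, again without overlap (difference 0.61, standard error 0.11, adjusted p = 0.156). Tat, the tyrosine aminotransferase, was the member that was lower, at 12.29, 12.74 and 13.33 in G3 and at 12.92, 13.36 and 13.84 in G2 (difference -0.59, adjusted p = 0.401).

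Targets of PPAR alpha and enzymes of fatty acid oxidation were split, with 24 of 44 higher and 20 lower in G3 (median 0.011), and 4 higher and 1 lower at an unadjusted p of 0.05 (9.09% and 2.27%, against 4.18% and 5.29% of all probes). The peroxisomal multifunctional enzyme Hsd17b4 differed by 0.13 (adjusted p = 0.279 from limma) and the mitochondrial dehydrogenase Hadh by 0.18 (standard error 0.04, adjusted p = 0.279). Fabp1, the abundant liver fatty acid binding protein, differed by -0.05 (95% interval -0.16 to 0.06). Without G3 replicate 2 the counts turned to 21 higher and 23 lower (median -0.009). In males 8 of the 44 were lower in G3 and in females 28 were, against 11672 and 11269 of the 22523 probes, and this contrast was not tested.

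Genes known to be higher in male liver had 12 of 16 members higher in G3 (median 0.079), and those higher in female liver had 9 of 13 members lower (median -0.148). At an unadjusted p of 0.05 the male list had 3 higher and 0 lower (18.8% and 0.0%) and the female list 1 higher and 4 lower (7.69% and 30.8%), against 4.18% higher and 5.29% lower of all probes. Without G3 replicate 2 the female list had 0 higher and 4 lower at that p. Hao2, a hydroxyacid oxidase of the male list, was at 9.93, 10.21 and 10.77 in G3 and at 9.38, 9.65 and 10.17 in G2 (difference 0.55, adjusted p = 0.389 from limma). A1bg, a secreted glycoprotein of the female list, was at 7.85 to 8.03 in G3 and 8.03 to 8.68 in G2, near the lower end of the scale (difference -0.32, adjusted p = 0.331). Both groups held 3 males and 3 females.

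Other pathways were also counted at an unadjusted p of 0.05, which 4.18% of all probes passed as higher and 5.29% as lower. Acute phase genes were lower in G3 at 18 of 22 (median -0.050) and interferon response genes at 16 of 23 (median -0.029), with 0 past that p in either list. Oxidative phosphorylation genes were higher at 26 of 40 (median 0.025, 2 higher and 1 lower at that p). Cell division genes were split at 15 and 15 (median -0.004, 0 higher and 3 lower, or 10.0%, at that p). Antioxidant genes under Nrf2 stood at 11 higher and 16 lower (median -0.025, 1 higher and 0 lower). Some lists held larger shares at that p. Glycolysis had 3 of 16 lower (18.8%) and 1 higher, and thyroid hormone genes 2 of 11 lower (18.2%) and 0 higher. Amino acid and taurine transport had 4 of 25 lower (16.0%) and 1 higher, and gluconeogenesis 2 of 15 lower (13.3%) and 0 higher. Targets of CAR and PXR had 2 of 15 in each direction, and adenylate kinases and purine genes 2 of 14 higher (14.3%) and 0 lower.

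Among genes with the largest differences of either sign were several outside the lists of lipid metabolism. Cavin3, a coat protein of caveolae, was at 11.0, 11.66 and 12.03 in G3 and at 12.27, 12.57 and 12.79 in G2. The groups did not overlap and the difference was -0.95 (standard error 0.16, adjusted p = 0.115 from limma), close to 2-fold. The vehicle pups averaged 11.86 ± 0.28 (SD, n = 6), between the doses and nearer to G3. P2ry2, a receptor for extracellular nucleotides, was at 8.99, 9.27 and 9.69 in G3 and at 9.79, 9.87 and 10.58 in G2 (difference -0.76, standard error 0.16, adjusted p = 0.230). Csrp2, a LIM-domain protein, was at 9.47 to 9.82 in G3 and 9.87 to 10.35 in G2 (difference -0.51, adjusted p = 0.165). Neither gene overlapped between the doses.

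None of the next genes passed an adjusted p of 0.05. Cebpb, a bZIP factor of liver, was at 11.98, 12.51 and 12.92 in G3 and at 12.86, 13.00 and 13.23 in G2 (difference -0.56, adjusted p = 0.279 from limma). Foxa2, a liver forkhead factor, differed by -0.73 (adjusted p = 0.296) at its brighter probe and by 0.02 at a dimmer one that stood at the lower end of the scale. Gadd45a, a growth arrest and DNA damage gene, differed by -0.78 (adjusted p = 0.347), Usp2, a deubiquitinase under circadian control, by -0.58 (adjusted p = 0.279), and Oaf by -0.51 (adjusted p = 0.375). Dusp1, a phosphatase of MAP kinases, had the largest difference of all probes, -1.63, and also a wide spread, at 9.69, 10.72 and 12.92 in G3 and at 11.44, 12.78 and 13.62 in G2 (standard error 0.56, adjusted p = 0.416). Tsc22d3, the glucocorticoid-induced leucine zipper, differed by -0.36 with no overlap, at 10.11 to 10.40 in G3 and 10.55 to 10.76 in G2 (standard error 0.06, adjusted p = 0.083). Dusp1, Tsc22d3 and the 2 probes ILMN_1362029 and ILMN_1351122 are outside the rule for named genes and were chosen after their values were seen.

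On the other side, Ncald, a neuronal calcium sensor, was at 10.26, 10.65 and 10.73 in G3 and at 9.22, 10.03 and 10.19 in G2. The groups did not overlap (difference 0.70, standard error 0.15, adjusted p = 0.279 from limma). The vehicle pups were at 9.95, 10.54 and 10.86, with a median nearer to G3 than to G2. Tmem140, a membrane protein, was higher in G3 at both of its probes, by 0.45 (adjusted p = 0.279) and, at the brighter one, by 0.37 (adjusted p = 0.272). Cd14, the co-receptor for lipopolysaccharide, was at 11.20, 11.86 and 11.94 in G3 and at 10.37, 11.10 and 11.66 in G2 (difference 0.67, adjusted p = 0.352). Its vehicle pups were at 10.77, 11.22 and 11.63, with a median nearer to G2. Lgals5, a rat galectin of erythrocytes, differed by 0.71 (adjusted p = 0.375) and Smpdl3a, an acid phosphodiesterase, by 0.39 (adjusted p = 0.279).

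Red cell transcripts leaned toward G3. Of 14 measured erythroid markers 13 were higher in G3, 7 of them and 0 in the other direction at an unadjusted p of 0.05 (50.0% against 4.18% of all probes), with a median difference of 0.075. The 14 averaged 9.63 to 9.90 per pup in G3 and 9.46 to 9.76 in G2, so the groups overlapped, and 9.65 to 10.11 in G1. The beta globin probe Hbb-b1 was at 13.42, 13.92 and 14.18 in G3 and at 12.76, 13.13 and 13.76 in G2. The difference was 0.63 (standard error 0.18, adjusted p = 0.352 from limma). In G1 this probe was at 13.09, 13.71 and 14.47, with a median nearer to G3 than to G2. The alpha globin probe Hba-a3 differed by 0.68 (adjusted p = 0.416) and Hbb by 0.37 (adjusted p = 0.414), whereas Hba-a1 differed by 0.02. Hba-a1 was at 15.22 to 15.42 in G3 and 15.06 to 15.52 in G2, near the upper end of the scale. Globin copies are nearly identical in sequence, and their probes may not tell them apart. Blood in the liver samples was not measured otherwise, and its part in any of the differences was not tested.

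General hepatocyte markers were lower in G3 at 10 of 12 and higher at 2 (median -0.043). At an unadjusted p of 0.05, 2 were lower and 0 higher (16.7% and 0.0%, against 5.29% and 4.18% of all probes). Markers of the hepatocyte zones also differed in direction. All 12 measured pericentral markers were lower in G3, 4 of them at an unadjusted p of 0.05 (median -0.147), and 9 of 12 periportal markers were higher, 2 of them at an unadjusted p of 0.05 (median 0.1). These shares were 33.3% lower for the pericentral and 16.7% higher for the periportal list, against 5.29% and 4.18% of all probes. The pericentral markers averaged 10.80 to 11.18 per pup in G3 and 11.16 to 11.36 in G2, and the periportal markers 11.43 to 11.92 in G3 and 11.53 to 11.85 in G2. The periportal markers include urea cycle genes such as Cps1, Ass1 and Asl, so their lean is not separate from that of the urea cycle genes above. Cyp7a1 and Cyp1a2 are among the pericentral markers. Rgn, the calcium-binding regucalcin of the same list, differed by -0.25 (adjusted p = 0.391 from limma), and Cyp2e1, its brightest member, by -0.07 (95% interval -0.19 to 0.05). Endothelial markers were higher in G3 at 10 of 11 (median 0.062, 2 or 18.2% at an unadjusted p of 0.05). Macrophage markers (4 of 11 higher), lymphocyte and neutrophil markers (11 of 17) and stellate cell markers (6 of 12) had medians between -0.022 and 0.006. The part of these cell types in the differences above was not tested.

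Most probes did not separate the doses, and the intervals give the range of differences in the deposited values. The median probe stood at 7.84, near the lower end of the scale, where a transcript may change without its value changing. Intervals of dim probes were narrow (median half-width 0.044 over all probes). Dim probes thus raise the shares below, which do not show that transcripts are alike. The probes at or above the median level include dim ones too, and detection calls were not used. The 95% interval of G3 minus G2 lay within 2-fold for 22415 of 22523 probes (99.5%) and within 1.5-fold for 22103 (98.1%). Among the 11262 probes at or above the median level these were 11154 (99.0%) and 10843 (96.3%), with a median half-width of 0.107 on the log2 scale. For 108 probes the interval reached beyond 2-fold.

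The genes that differed from vehicle in one or both exposed groups fell into both kinds. Against G1, 18 probes (0.0799%) passed an adjusted p of 0.05 in G3 and 3 probes (0.0133%) in G2, and both comparisons share the G1 pups. G6pc1, the glucose 6-phosphatase of gluconeogenesis, was at 12.47, 13.20 and 13.61 in G3 and at 12.60, 13.18 and 13.37 in G2, against a G1 mean of 11.85 ± 0.31 (SD, n = 6). Its difference between the doses was -0.02 (95% interval -0.50 to 0.47), while each dose stood above vehicle, G3 by 1.23 (adjusted p = 0.0584) and G2 by 1.25 (adjusted p = 0.0474 from limma). Cyp4a3, a fatty acid omega-hydroxylase, was at 12.19, 12.60 and 13.32 in G3 and at 12.47, 12.88 and 13.00 in G2, against 11.72 ± 0.26 in G1 (SD, n = 6). The doses differed by -0.10 (95% interval -0.56 to 0.35), or by -0.22 without G3 replicate 2, by 0.31 in males and by -0.52 in females. Crot, the peroxisomal carnitine octanoyltransferase, differed by -0.09 (95% interval -0.37 to 0.18) and stood above vehicle by 0.90 in G3 (adjusted p = 0.0576) and by 0.99 in G2 (adjusted p = 0.0393). For these 3 genes a 2-fold difference between the doses, in either direction, lay outside the interval.

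Por, Sc5d and Slc6a6 had other dose patterns. These genes were chosen by the direct comparison, whose G3 and G2 pups also enter the steps from vehicle. The steps are therefore a description and not separate evidence. In Por the G1 mean was 12.32 ± 0.41 (SD, n = 6), and G2 stood 0.42 below it (adjusted p = 0.486 from limma) and G3 1.15 below it (adjusted p = 0.0461). In Sc5d the steps were -0.24 for G2 (adjusted p = 0.482) and -0.76 for G3 (adjusted p = 0.0219), with the G1 mean at 13.28 ± 0.22 (SD, n = 6). In Slc6a6 G2 differed from G1 by 0.02 (adjusted p = 0.942) and G3 by 0.55 (adjusted p = 0.0219). Dcaf13, a ribosome biogenesis factor past the threshold against vehicle in G3 (-0.22, adjusted p = 0.0477), differed by 0.00 between the doses (95% interval -0.10 to 0.11), and G2 stood at -0.23 from vehicle (adjusted p = 0.419).

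**Figure D5:**
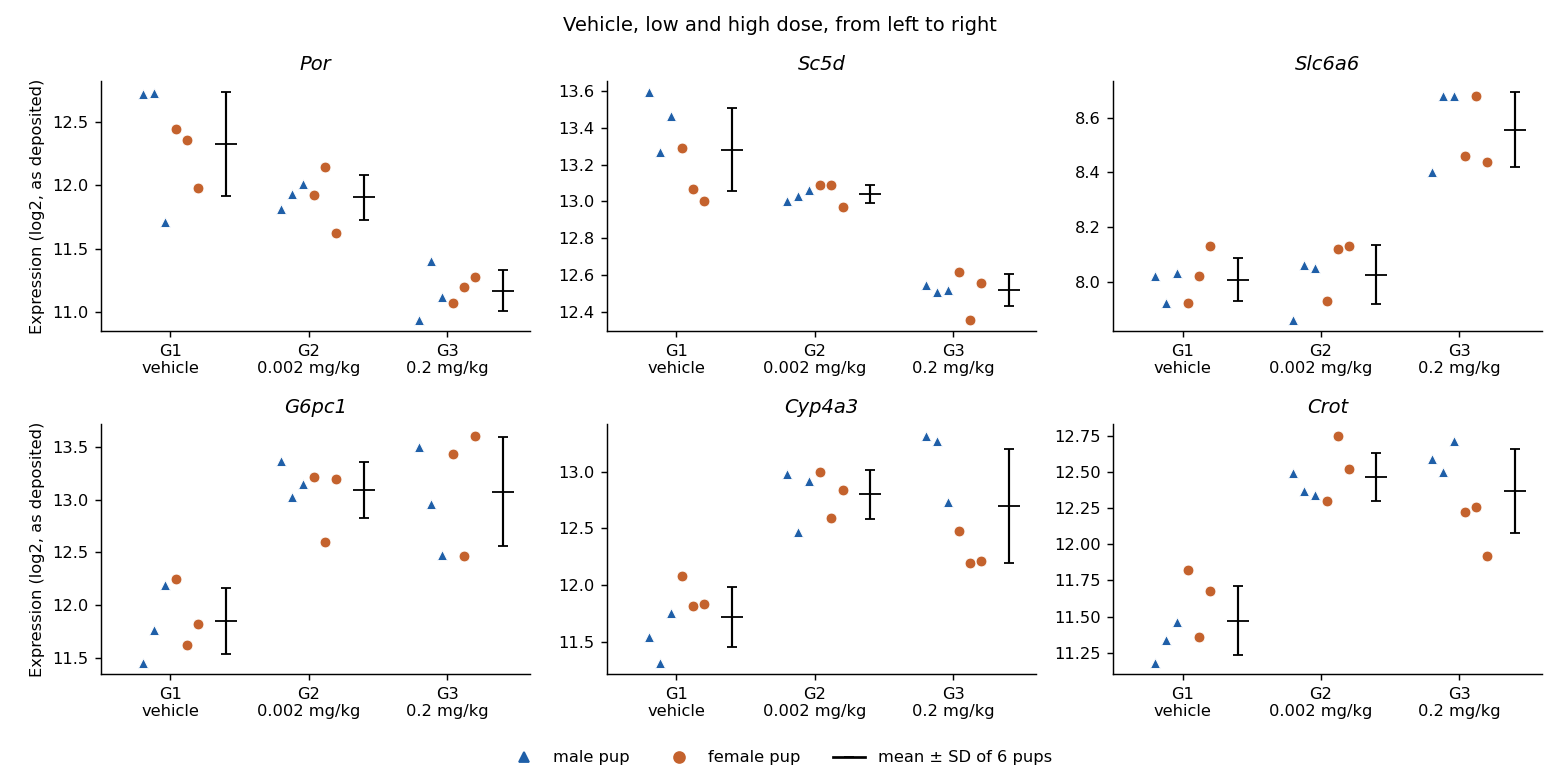
Expression of 6 genes in each pup (log2, as deposited) for vehicle (G1), 0.002 mg/kg (G2) and 0.2 mg/kg (G3) from left to right, with triangles for males, circles for females and bars for the mean and SD of 6 pups. Por, Sc5d and Slc6a6 part G3 from G2 by -0.74, -0.52 and 0.54, whereas G6pc1, Cyp4a3 and Crot stand above vehicle at both doses and differ between them by -0.02, -0.10 and -0.09.

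Other genes named by the study did not separate the doses at an adjusted p of 0.05, apart from Por, and the direct comparison resolved them to different degrees. Slc3a2, the heavy chain of amino acid transporters, was at 10.99, 11.34 and 11.57 in G3 and at 11.36, 11.62 and 11.84 in G2 (difference -0.33, 95% interval -0.60 to -0.05, adjusted p = 0.460 from limma), with G1 at 10.76 ± 0.26 (SD, n = 6). Per2, a repressor of the circadian clock, differed by -0.25 (95% interval -0.58 to 0.07), or by -0.15 without G3 replicate 2, and Cyp4a1 by -0.21 (95% interval -0.53 to 0.11). A slightly dimmer probe of Cyp4a1 differed by 0.04 (standard error 0.27). For Akr1b7, an aldo-keto reductase, and Rhoa, a small GTPase, the intervals of -1.35 to 0.45 and -0.17 to 1.28 were too wide to tell a 2-fold difference from none. Of the 23 genes the study names that have a probe, 9 were higher and 14 lower in G3, and the study chose them on these pups.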

How the data were processed

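Liver RNA of 18 pups was measured on 18 arrays. The authors deposited 1 table of log2 expression values for 22523 probes, preprocessed and normalized with the lumi package through FlexArray. The version of lumi, the background correction and the way of normalizing are not stated in the sources used here, and raw intensities and detection calls were not used here. Groups were taken from the titles.

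Per probe, G3 was compared with G2 over 12 arrays with limma 3.58.1 (lmFit and eBayes, statmod 1.5.0, R 4.3.3, two-sided, Benjamini-Hochberg over all 22523 probes, threshold 0.05), with no covariate and no filter. Single values also had an exact permutation test over the 924 splits of 6 against 6. The steps were tested on simulated data. The methods' Bayesian t-test was not run. Of the probes 13793 carry 1 gene symbol and 8730 carry none; 13752 were matched to RefSeq GRCr8. The probe of highest mean stands for a gene, except where a dimmer probe met the rule below.

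Named genes were probes past the threshold, the 12 largest differences of each sign at an unadjusted p of 0.01 with 1 sign in both sexes, genes the study names, the 2 members of smallest p and the brightest member of each pathway list, named probes past the threshold against G1, and marker genes. There were 27 pathway lists, 13 marker lists and the study's own. Members and lists were chosen with earlier results of these data known. Alternatives were another variance prior, a filter on dim probes, quantile normalization, centring, sex as a covariate, a replicate block, array weights, a fit of all 3 groups, other probes, and each pup left out. The counts of list members without G3 replicate 2 were added after seeing the data.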

Additional observations from a re-analysis of the deposited data

Results flagged for a closer look

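In each group of 6 pups, the values of the genes and lists described above were examined for a single pup far from the rest, by Dixon's criterion on the gap to the nearest pup relative to the whole range. Of 200 groups of values 14 (7.0%) held such a pup, and chance alone gives about 1 in 20.

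G3 replicate 2 accounted for 4 of the 14. Its Acta1 stood at 13.70 with the next pup at 8.91, its Ckm at 12.77 with the next at 8.38, and the mean of its muscle markers at 9.81 with the next at 7.99. Its Tm7sf2, at 12.12, was the highest of G3, with the next at 11.86.

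The other G3 values that stood apart were ILMN_1650310 in replicate 3 (7.98, next pup 7.92), Gstm1 in replicate 3 (14.82, next 14.60), Ncald in replicate 6 (10.26, next 10.59), Cd14 in replicate 1 (11.20, next 11.77), Acsl5 in replicate 4 (12.25, next 11.95) and Cyp2c12 in replicate 5 (15.67, next 15.45). In G2 they were Gadd45a in replicate 6 (9.32, next 10.17), Dhcr7 in replicate 6 (13.60, next 13.23), Tmem140 in replicate 3 (10.52, next 11.06) and Hba-a3 in replicate 1 (11.16, next 10.30).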

How the results depend on the processing

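The 4 probes past an adjusted p of 0.05 became 7 when the variance prior was let follow the mean, 11 without dim probes, 1 when all 3 groups were fitted together and 1 at an adjusted p of 0.01. Leaving out single pups gave 1 to 6 calls, with 1 call without G3 replicate 1, 4, 5 or 6 or G2 replicate 2, 4 or 5, 2 calls without G3 replicate 3 or G2 replicate 1 or 3, and 6 without G2 replicate 6. The cause was not tested. No probe passed together with a 2-fold difference in any setting, while those at an unadjusted p of 0.05 and 2-fold numbered 5, and 3 (without G3 replicate 3) to 7 (without G3 replicate 2) with pups left out. Probes without overlap numbered 137, 88 without dim probes and 189 to 287 with pups left out, where fewer pups make overlap rarer. Intervals within 2-fold numbered 22415, 11156 without dim probes, where fewer probes are tested, and 22397 to 22419 with pups left out. Dose differences that differ by sex numbered 0, and 0 to 1 with pups left out (1 without G2 replicate 6).

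With the replicate number as a block 0 probes passed (1898 at an unadjusted p of 0.05), and Sc5d had an adjusted p of 0.0765, Por 0.173, Slc6a6 0.0765 and ILMN_1650310 0.191 (limma). Same-numbered pups of G3 and G2 deviated from their group means with correlations of -0.33 to 0.17, and 1 of 6 matched its own number best. So few pairs cannot show whether same-numbered pups shared a chip or a processing step, and this was not tested. Cavin3 passed with the other prior (adjusted p = 0.0396) and with sex as a covariate (0.0427), Gpd1 without dim probes (0.0447) and without G2 replicate 6 (0.00372), and Tsc22d3 without dim probes (0.0489) and with sex as a covariate (0.0427). ILMN_1368576, which carries no symbol, and Med9 passed with the other prior and without dim probes. ILMN_1368576 also passed without G3 replicate 2 or without G2 replicate 6, and Med9 without G2 replicate 1. Without G3 replicate 2 the 4 calls were Sc5d, Por, ILMN_1368576 and Nipsnap3b. Further probes passed in single settings. No called gene changed sign in any setting. The median half-width of the 95% interval was 0.044 over all probes and 0.107 over the brighter probes, at or above the median level.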

Other observations

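A few probes had a range of at least 3 on the log2 scale within G3 and also within G2. Among these, Rpl30 and RT1-A2 split the pups into high and low values. Rpl30, a ribosomal protein gene, stood at 12.79 to 13.41 in 3 G3 pups and at 8.75 to 9.45 in the other 3, and at 12.86 and 13.36 in 2 G2 pups and 9.22 to 9.37 in the other 4. RT1-A2, a class I histocompatibility gene of the rat, stood at 11.01 and 10.73 in 2 G3 pups and at 7.78 to 7.90 in the other 4, and at 10.62, 12.12 and 11.19 in 3 G2 pups and 7.79 to 7.80 in the other 3. High and low values occurred in G1 as well. The intervals of G3 minus G2 were -1.92 to 2.93 for Rpl30 and -2.83 to 1.39 for RT1-A2, so neither probe resolved a dose difference. Both were chosen after their values were seen.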
